A study of Mus musculus with 15 samples.

Results

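The 9 genes described here carry the retinoic acid pathway at its receptors and at the enzymes and proteins that set retinoic acid levels. They are the retinoic acid receptor genes Rara, Rarb and Rarg, the retinoid X receptor genes Rxra and Rxrb, the breakdown enzymes Cyp26a1 and Cyp26b1, the binding protein Crabp2 and the uptake receptor Stra6. They were chosen by name from 22350 protein-coding genes, and each was read in a window made of its annotated span on the mouse genome build mm9 plus 20 kb on each side. In every window, the bases lying under a peak were counted for H3K27ac and H3K4me1 in ESCs, D-EPSCs and L-EPSCs, and where 3 values follow each other they are in that order.

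All cells came from 1 mouse embryonic stem cell line, J1, of strain 129SV. ESCs were grown in serum medium with LIF, CHIR99021 and PD0325901. D-EPSCs were converted from them in N2B27 medium with serum replacement, LIF, CHIR99021, dimethindene maleate and minocycline hydrochloride, and L-EPSCs in medium with serum replacement, LIF, CHIR99021, PD0325901, A-419259, XAV939, JNK inhibitor VIII and SB203580. LIF and CHIR99021 were therefore shared by the 3 states. Chromatin immunoprecipitation followed by sequencing (ChIP-seq) had 2 samples per state and mark and 1 input per state, 15 samples in all, but the peaks come as 1 list per state and mark. Differences between states therefore have no replicate check, and each is given as values side by side, next to the same measure over all genes, without a test. The lists do not give read depth or peak height, so a covered base says only that a peak was called over it.

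Retinoic acid is made inside cells from vitamin A and acts through a receptor pair, an RAR bound to an RXR, that sits on DNA with or without the ligand. Crabp2 carries retinoic acid to the nucleus, Stra6 brings in vitamin A from its carrier in blood, and the Cyp26 enzymes oxidise retinoic acid for disposal. The classical element for the receptor pair is a DR5, a direct repeat of a 6-base unit with 5 bases between the copies, and the promoters of Rarb, Cyp26a1 and a short Rara transcript are textbook examples of genes that retinoic acid itself induces in embryonic stem cells. H3K27ac marks active promoters and enhancers, and H3K4me1 marks enhancers and the flanks of promoters, whether they are active or poised.

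The sequences that the promoter results turn on are the DR5 matches in these windows that lie within 1 kb of a member's start or under one of its H3K27ac peaks. They were read from the mm9 genome, 5′ to 3′ on the strand of the match, with the 6-base units in capitals and 5 flanking bases on each side. Each unit was searched, on both strands, as A or G, then G, then G or T, then TCA.
Rarb, chr14:17408027-17408043, minus strand: ggaagGGTTCAccgaaAGTTCActcgc
Rara, chr11:98821322-98821338, plus strand: aggcgAGTTCAgcaagAGTTCAgccga
Cyp26a1, chr19:37772266-37772282, minus strand: aaattAGTTCAcccaaAGTTCAtcttt
Rarg, chr15:102081248-102081264, minus strand: gtcagGGTTCAaagtgAGGTCAcggta

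The Rarb match was centred at position -49 from the gene's internal start, on the coding strand. That start gives rise to a shorter transcript inside the long Rarb span. The 150 bases before it, chr14:17407987-17408136 on the minus strand, are shown because both EPSC states had an H3K27ac peak over them and ESCs had none.
Rarb upstream: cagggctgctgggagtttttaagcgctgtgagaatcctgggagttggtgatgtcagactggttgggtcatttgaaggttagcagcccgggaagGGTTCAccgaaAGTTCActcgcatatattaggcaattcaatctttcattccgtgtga
The Cyp26a1 match was centred at position -24 and lay on the strand opposite to the gene, so its units read as their reverse complement in the 150 bases before the start, chr19:37772148-37772297 on the plus strand. They are shown because H3K4me1 covered them in both EPSC states and not in ESCs.
Cyp26a1 upstream: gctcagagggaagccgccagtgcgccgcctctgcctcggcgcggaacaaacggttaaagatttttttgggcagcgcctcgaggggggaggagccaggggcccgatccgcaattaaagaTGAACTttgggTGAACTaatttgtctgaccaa

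A DR5 match lay within 1 kb of a start in 3 of the 9 members, Rara, Rarb and Cyp26a1, against 0.828% of all 22350 genes. These genes belong to the pathway that the element was defined in, so the match is a description of the promoters and was not tested as a finding. Over the whole windows the members held 11 DR5 matches, 10.7 per Mb, where the windows of all genes held 3.7 per Mb. The same units 1 base apart (DR1) stood at 9.7 per Mb in the members and 7.5 in all windows, and 2 bases apart (DR2) at 14.5 and 11.9 per Mb. A match is a stretch of letters and says nothing on whether a receptor was bound there.

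At each of the 3 matched starts, at least 1 EPSC state had a mark over the DR5 match that ESCs lacked, as did 22.7% of the 185 DR5 matches in start windows of all genes. At the Rarb internal start, chr14:17407986, no H3K27ac peak lay within 5000 bp in ESCs, a 670 bp peak ran from position -412 to 257 in D-EPSCs, and a 1033 bp peak ran from -466 to 566 in L-EPSCs. Both EPSC peaks covered the DR5 match. H3K4me1 at this start was a 465 bp peak downstream of the start in ESCs, peaks of 1022 and 858 bp downstream in D-EPSCs, and a 5328 bp peak over the start and the match in L-EPSCs.

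The Rara start at chr11:98821726, an internal start of the gene, carried H3K27ac in all 3 states, but in different places. In ESCs a 265 bp peak ended at position -1115 and a 310 bp peak began at 43, which left the DR5 match at position -396 without cover. A 727 bp peak in D-EPSCs ended at position -484, also short of the match, and a 1575 bp peak in L-EPSCs ran from -1235 to 339 and covered it. H3K4me1 covered none of the 2001 bases around this start in ESCs, all 2001 in D-EPSCs and 1381 in L-EPSCs, and lay over the match in both EPSC states.

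Cyp26a1 had no H3K27ac peak in any state anywhere in its 43.7 kb window. H3K4me1 covered 947 of the 2001 bases around its start in ESCs, in 2 peaks that stopped at position -326 and began again at 729. In D-EPSCs 1 peak ran from -2449 to 1756 and in L-EPSCs 1 peak ran from -2647 to 1945, so that the start and the DR5 match were covered in both. A further match, centred at position -1891, was under H3K4me1 in all 3 states.

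**Figure D1:**
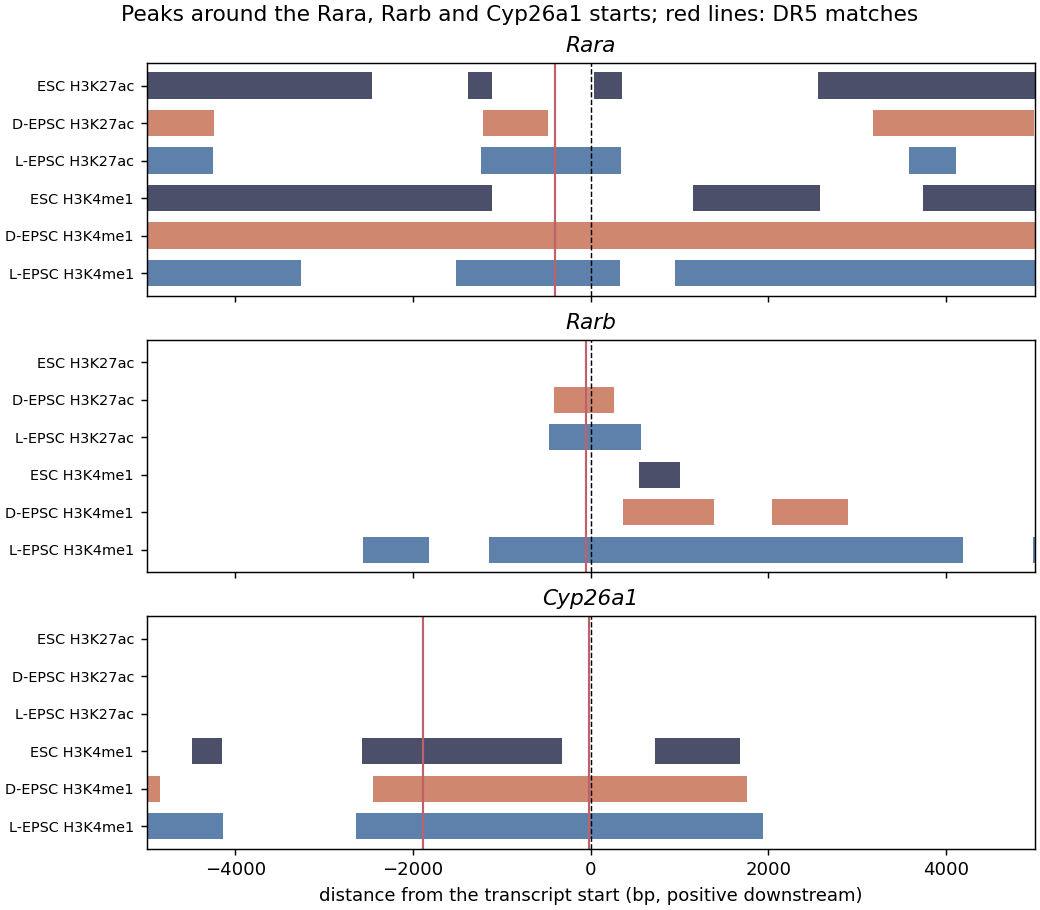
Peaks of the 6 lists within 5000 bp of the Rara internal start, the Rarb internal start and the Cyp26a1 start, by distance from the start in bp (horizontal axis, positive downstream). Bars are peaks, the dashed line is the start and red lines are DR5 matches. The Rarb match at -49 lies under H3K27ac in both EPSC states and the Cyp26a1 match at -24 under H3K4me1 in both, where ESCs have no peak.

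Per length of window, Rara and Rarg carried the most H3K27ac of the receptor genes in ESCs, over 38.7% and 49.9% of their bases. The window of Rara, chr11:98769132-98856256, held 33.7, 12.3 and 11.0 kb of H3K27ac and 61.5, 57.1 and 51.0 kb of H3K4me1. H3K27ac was thus lower by more than 2-fold in both EPSC states while H3K4me1 was not. On the log2 scale, with 500 bp added to both values, the H3K27ac ratio over ESCs was -1.41 for D-EPSCs and -1.57 for L-EPSCs. These ratios were above 39.9% and 54.9% of genes tested, near the middle of all genes.

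The 4 start windows of Rara, each 1 kb on both sides of its transcript starts, behaved differently from each other. The first, around the 5′ end of the gene, had 2001, 0 and 338 bases of H3K27ac, with H3K4me1 over all 2001 in each state. The last, chr11:98825186-98827186, held 2001, 1535 and 521 bases of H3K27ac. The internal start with the DR5 match ran the other way, with 310, 517 and 1340 bases. The widest distal H3K27ac region of Rara, chr11:98810657-98816003, over introns and exons of the gene, held 5052, 853 and 213 bp of H3K27ac, with H3K4me1 in all 3 states. Distal means over 1 kb from every annotated protein-coding start. Cdc6, Gjd3 and Top2a lie partly in this window, so some of its cover is over those genes.

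Rarg, the receptor gene most like Rara over the 6 lists (Euclidean distance 0.77 of log2 covered bases), held 31.2, 10.9 and 8.90 kb of H3K27ac and 45.3, 47.0 and 37.2 kb of H3K4me1. Its H3K27ac log2 ratios of -1.48 and -1.76 were above 37.4% and 46.9% of genes. At its 5′ start, H3K27ac covered 1184 bases in ESCs and 0 in either EPSC state, while H3K4me1 covered 836, 1422 and 2169 bases. The start window of its other transcript held 942, 416 and 0 bases of H3K27ac and 0, 426 and 1462 bases of H3K4me1. Both Rarg start windows therefore had H3K27ac highest in ESCs and H3K4me1 highest in L-EPSCs. The DR5 match of Rarg lay inside the gene, centred at position -4325 from the start of that other transcript. It was under H3K27ac in ESCs only and under H3K4me1 in all 3 states. The widest distal H3K27ac region of Rarg, chr15:102101254-102103216, lay outside protein-coding genes, 13306 bp upstream of the 5′ start. It held 1770, 1824 and 1153 bp and so did not follow that start. Zfp740 and Itgb7 reach into the Rarg window, so some of its cover, and of the 49.9% in ESCs, lies over neighbouring genes. With other genes left out, the H3K27ac log2 ratios of Rarg were -1.36 in D-EPSCs and -1.62 in L-EPSCs.

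Rarb went the other way. Its 428.0 kb window held 0.505, 3.67 and 1.55 kb of H3K27ac, most in D-EPSCs, and 5.27, 8.16 and 14.6 kb of H3K4me1, most in L-EPSCs. The H3K27ac log2 ratios of 2.05 and 1.03 were above 99.1% and 98.7% of genes tested, and the H3K4me1 ratios of 0.59 and 1.38 above 87.4% and 95.0%. The 1 kb minimum for a gene to enter the comparison, in at least 1 of the 2 states, was met by Rarb through the EPSC lists alone, so the H3K27ac values had to be higher there. The outer start of Rarb, at the 5′ end of its span, had no peak of either mark in any state.

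Away from its starts, Rarb had a 2995 bp H3K27ac region over an exon and introns near the 3′ end of the gene, chr14:17265925-17268919. It was covered in full in D-EPSCs, over 514 bp in L-EPSCs and not in ESCs, and H3K4me1 lay over it in all 3 states. A 505 bp intronic H3K27ac region at chr14:17588536-17589040 was found in ESCs only. H3K4me1 within Rarb comprised 3, 7 and 9 distal peaks.

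Rxra, the most widely used partner of the RARs, was the 1 member with both marks lower by at least 2-fold in an EPSC state, L-EPSCs. No other protein-coding gene lies in its window. H3K27ac covered 13.3, 5.53 and 2.76 kb, and H3K4me1 covered 25.4, 14.1 and 10.5 kb. The H3K27ac log2 ratios, -1.20 and -2.08, were above 48.6% and 34.1% of genes, but the H3K4me1 ratios, -0.83 and -1.24, were above only 6.21% and 3.44%. With lists of equal covered bases the H3K27ac ratios turned to 3.44 and 2.71, and the H3K4me1 ratio in L-EPSCs was -0.51, no longer past 2-fold. H3K27ac within 1 kb of an Rxra start was 156 bases in ESCs and 0 in both EPSC states.

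Every distal H3K27ac region of Rxra lay within the gene. A 2666 bp region at chr2:27594347-27597012 kept H3K27ac over 2462, 2666 and 2344 bp, and the widest, chr2:27599663-27603539, held 3692, 2252 and 418 bp. By contrast, the 2331 bp region chr2:27540200-27542530 had H3K27ac in ESCs alone, with H3K4me1 in all 3 states. A 613 bp region at chr2:27597567-27598179 had H3K27ac in D-EPSCs alone.

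Rxrb, which codes for the other RXR examined, held 2.00, 2.52 and 2.57 kb of H3K27ac, and its log2 ratios of 0.27 and 0.30 lay above 91.4% and 96.8% of genes. The larger EPSC values came from a region at the start of the neighbouring gene Ring1, chr17:34160796-34162204, with 0, 852 and 1409 bp. With other genes left out, the log2 ratio of Rxrb was -0.77 in each EPSC state, on cover below the 1 kb minimum. Its start window held 1646, 1666 and 1158 bases of H3K27ac and 10, 1252 and 1513 bases of H3K4me1. The H3K4me1 peaks of EPSCs stopped at positions -683 and -565 and began again at 656 and 513, so they flanked the start on both sides. Slc39a7 starts in the same stretch, and cover of the 2 promoters cannot be told apart. The 351 bp distal H3K27ac region chr17:34149263-34149613 was found in ESCs alone.

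**Figure D2:**
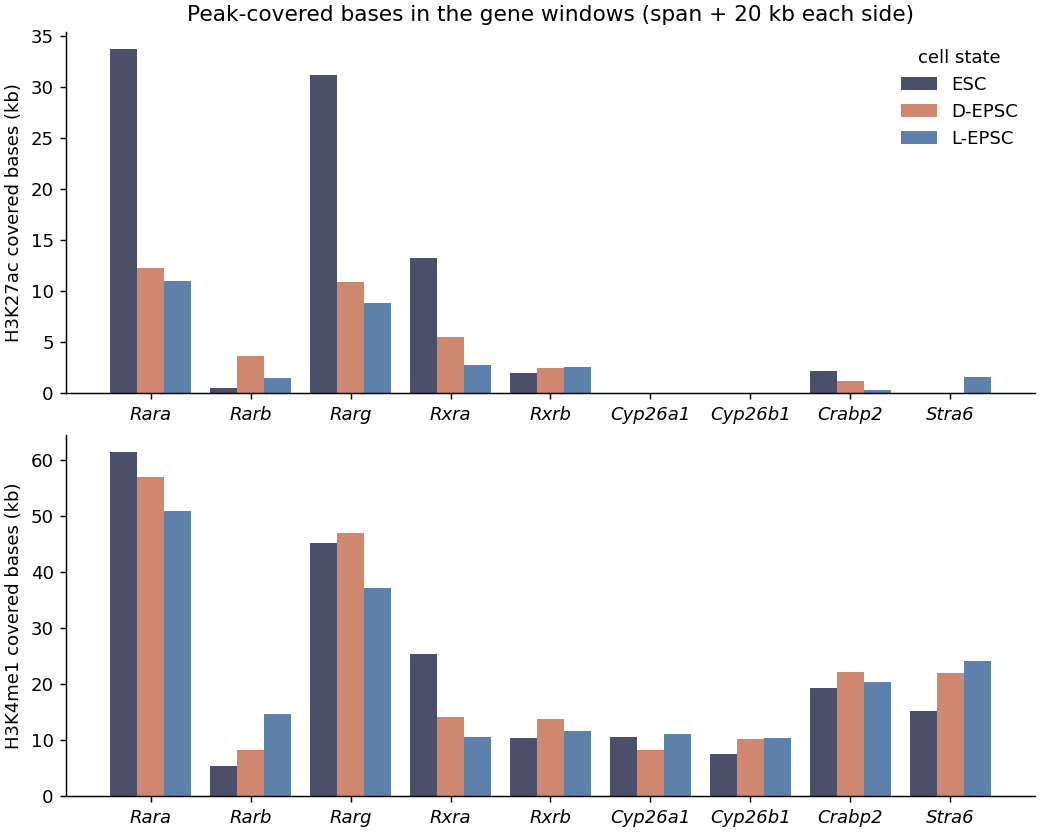
Bases under a peak (kb, vertical axis) in the window of each member, for H3K27ac (top) and H3K4me1 (bottom), with 1 bar per cell state and 1 list per bar. H3K27ac of Rara, Rarg and Rxra is highest in ESCs and that of Rarb is highest in D-EPSCs, while Cyp26a1 and Cyp26b1 have none in any state.

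The breakdown enzymes Cyp26a1 and Cyp26b1 were alike (distance 0.57, the shortest of any pair): neither had H3K27ac in any list, and both had H3K4me1 in all. Cyp26a1 held 10.6, 8.14 and 11.0 kb of H3K4me1 and Cyp26b1 7.42, 10.1 and 10.3 kb. Exoc6 and Cyp26c1 reach into the Cyp26a1 window, so some of its cover is over those genes. The H3K4me1 log2 ratios of Cyp26a1 over ESCs were -0.36 in D-EPSCs and 0.05 in L-EPSCs. With other genes left out they were -0.39 and -0.29. At the internal start of Cyp26b1, H3K4me1 covered 920 bases in ESCs and all 2001 in both EPSC states, much as at the Cyp26a1 start. Its 5′ start had no peak of either mark. A DR5 match 21996 bp downstream of the internal start of Cyp26b1, beyond the 3′ end of the gene, was under H3K4me1 in all 3 states.

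Crabp2 had H3K4me1 over all 2001 bases around its start in every state and no H3K27ac there. Its window held 19.3, 22.2 and 20.4 kb of H3K4me1 and 2.24, 1.18 and 0.285 kb of H3K27ac. The widest H3K27ac region, 1467 bp at chr3:87747743-87749209 and 3379 bp upstream of the start, was covered in full in ESCs, over 297 bp in D-EPSCs and not in L-EPSCs. The H3K27ac that L-EPSCs had in this window, 0.285 kb, lay at the start of a neighbouring gene.

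Stra6 had no H3K27ac in ESCs or D-EPSCs and 1.64 kb in L-EPSCs. All of the L-EPSC cover came from 2 distal regions over introns of Ccdc33, a gene that overlaps part of the Stra6 span. The first was 5750 bp at chr9:57886643-57892392, part of which lies outside the window, and the second 843 bp at chr9:57892994-57893836. H3K4me1 lay over both regions in all 3 states. With a 10 kb flank, or with other genes left out, Stra6 had no H3K27ac in any list. Its H3K4me1, 15.2, 21.9 and 24.2 kb, included peaks at 2 start windows in EPSCs only, with 0, 1068 and 983 bases at the one and 0, 1773 and 1317 at the other. Like Rarb, Stra6 met the H3K27ac minimum through an EPSC list alone.

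Counted over the members, lower H3K27ac was the commonest difference between EPSCs and ESCs, as it was over all genes. D-EPSCs had at least 2-fold fewer H3K27ac-covered bases than ESCs at 3 of the 6 members tested, Rara, Rarg and Rxra, where 61.6% of all genes did, and at least 2-fold more at 1, Rarb, where 4.66% did. L-EPSCs had fewer at 4 of 7, these 3 and Crabp2, against 79.6% of all genes, and more at 2, Rarb and Stra6, against 1.79%. Rarb and Stra6 met the 1 kb minimum through EPSC lists alone, so against ESCs they could only be called higher. The Stra6 cover lay over Ccdc33 introns. Between the EPSC states, L-EPSCs had fewer than D-EPSCs at 3 of 7, Rarb, Rxra and Crabp2, against 33.0%, and more at 1, Stra6, against 5.49%. The median log2 ratio over members was -0.95 in D-EPSCs and -1.57 in L-EPSCs, beside -1.16 and -1.69 over all genes, and -0.28 for L-EPSCs over D-EPSCs, beside -0.48. The D-EPSC and L-EPSC comparisons share the ESC list.

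The H3K27ac lists differed in size, at 107.4, 44.4 and 34.3 Mb covered. When each list was cut to its widest peaks so that all 3 covered equal bases, the share of all genes with lower H3K27ac was 15.4% in D-EPSCs and 17.3% in L-EPSCs, and the share with higher was 64.0% and 60.5%. For L-EPSCs over D-EPSCs these shares were 20.7% and 15.6%. Under that cut Rarg alone was lower among the members in each EPSC state, Rarb, Rxra and Rxrb were higher in both, and Stra6 was higher in L-EPSCs. The direction of Rxra therefore turned under this cut, but its H3K27ac log2 ratios were negative under every other processing alternative tried. With lists cut to equal numbers of their widest peaks they were -0.58 in D-EPSCs and -1.46 in L-EPSCs. Rarg was lower and Rarb higher in both EPSC states, in the full lists and under the cut to equal covered bases. Rarb could not be called lower than ESCs in either case, because its ESC cover was below the 1 kb minimum.

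H3K4me1 differed less. D-EPSCs had at least 2-fold fewer covered bases than ESCs at 0 of 9 members, against 4.52% of all genes, and at least 2-fold more at 0, against 8.53%. L-EPSCs had fewer at 1, Rxra, against 9.12%, and more at 1, Rarb, against 9.27%. L-EPSCs had fewer than D-EPSCs at 0, against 2.98%, and more at 0, against 3.17%. The members' median log2 ratio was 0.20 in D-EPSCs and 0.08 in L-EPSCs, beside -0.11 and -0.29 over all genes, and 7 and 8 of the 9 members lay above the all-gene median. Some lay close to it: Rara was above 50.7% of genes in D-EPSCs, and Rara and Rarg above 51.3% and 50.3% in L-EPSCs. With lists of equal covered bases, 2.89% of all genes were lower and 23.6% higher in D-EPSCs, and 3.26% and 26.5% in L-EPSCs. Under that cut 0 members were lower in either EPSC state, Stra6 was higher in D-EPSCs, and Rarb, Cyp26a1 and Stra6 were higher in L-EPSCs. With other genes left out, the H3K4me1 log2 ratio of Stra6 was 1.68 in D-EPSCs and 1.73 in L-EPSCs, past 2-fold in both. In that setting 8.61% and 9.25% of all genes were higher. It also drops the part of the Stra6 span that Ccdc33 overlaps.

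**Figure D3:**
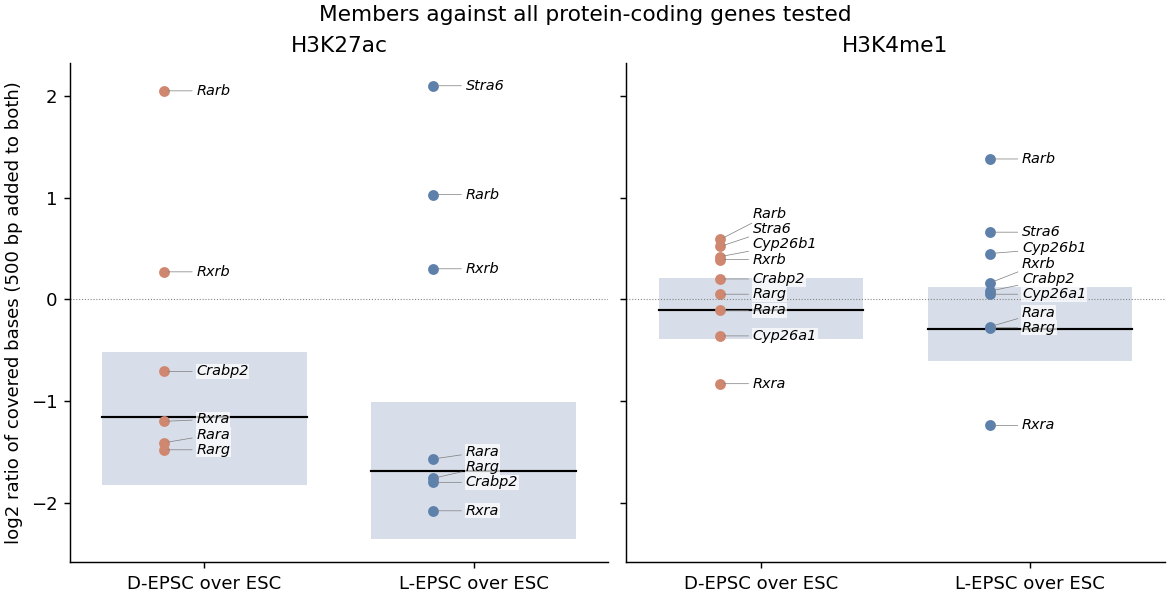
log2 ratio of covered bases in D-EPSCs and L-EPSCs over ESCs (vertical axis, 500 bp added to both values) for the members that met the 1 kb minimum, by mark. Points are genes, the shaded band runs from the lower to the upper quartile of all genes tested and the black line is their median. For H3K27ac, Rarb and Rxrb lie above the band in both states and Stra6 in L-EPSCs, and for H3K4me1, Rarb, Rxrb, Cyp26b1 and Stra6 lie above it in both and Rxra below it in both.

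At start sites, H3K27ac was present at 4 of 9 members in ESCs (Rara, Rarg, Rxra and Rxrb), beside 37.8% of all genes, at 4 in D-EPSCs (Rara, Rarb, Rarg and Rxrb), beside 37.1%, and at 3 in L-EPSCs (Rara, Rarb and Rxrb), beside 30.5%. H3K4me1 was present at 8 members in ESCs, beside 61.1%, and at all 9 in D-EPSCs and in L-EPSCs, beside 69.0% and 70.0%. Stra6 was the member without it in ESCs. Of the members, 6 have more than 1 start window, and a peak at any of them counted.

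In covered bases, the members' start windows, 44.2 kb in all, held 12.6, 23.1 and 25.6 kb of H3K4me1. That was 28.5%, 52.2% and 57.9% of their bases, where start windows of all genes stood at 22.9%, 35.2% and 37.6%. More start bases were under H3K4me1 than in ESCs at 8 of 9 members in D-EPSCs, beside 83.4% of all genes, and at 8 of 9 in L-EPSCs, beside 82.5%. The direction was thus that of most genes. Crabp2, already covered in full, was the exception in L-EPSCs and in D-EPSCs alike. For H3K27ac, fewer start bases than in ESCs were covered at 3 of 5 members in D-EPSCs, beside 55.2%, and at 4 of 5 in L-EPSCs, beside 73.1%, and the share of start bases covered was 20.3%, 12.1% and 10.8%, where all genes stood at 17.7%, 14.6% and 10.6%.

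**Figure D4:**
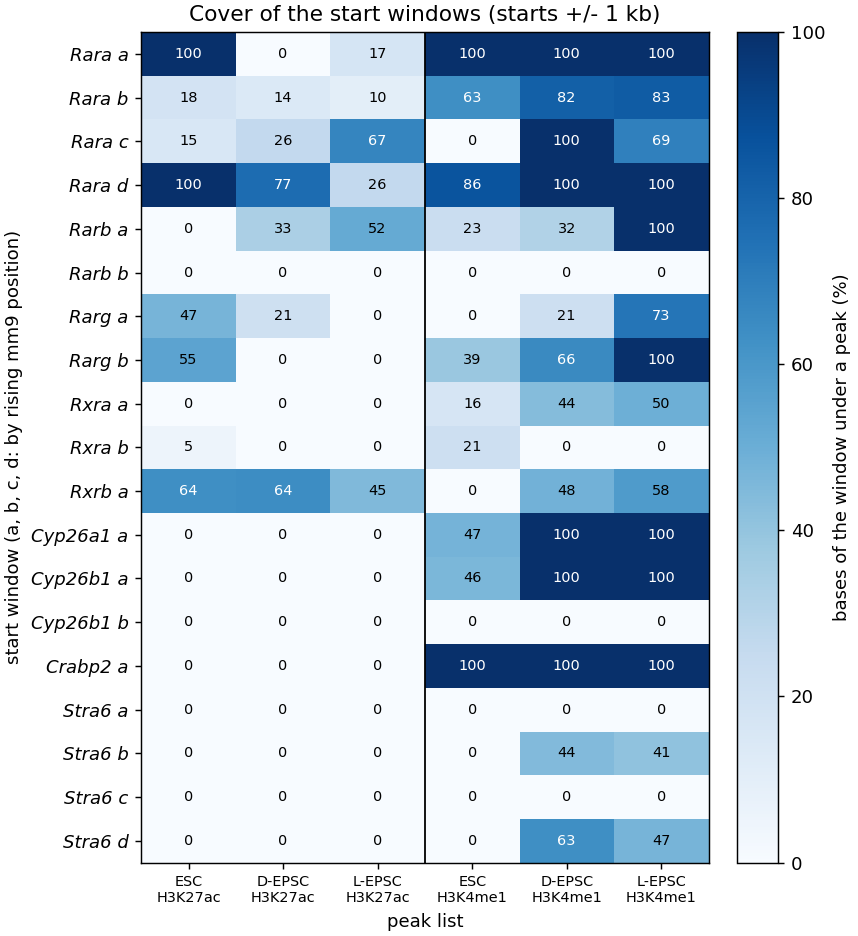
Share of each start window under a peak (%, colour and printed value) for the 19 start windows of the members (rows, a to d by rising position in each gene) in the 6 lists (columns). H3K27ac is found in the rows of Rara, Rarb, Rarg, Rxra and Rxrb only, and H3K4me1 cover is higher in the EPSC columns in most rows.

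Distal cover made up most of both marks. The members' windows held 72.2, 28.7 and 22.0 kb of distal H3K27ac and 178, 164 and 149.7 kb of distal H3K4me1. When the peaks of the 3 states were joined, 39 of the joined H3K27ac regions touched no start window and were counted as distal. Distal bases of regions that reach a start window are in the kb above but not in these 39. Of these, 24 (61.5%) had H3K27ac in ESCs alone and 7 (17.9%) in all states, beside 59.4% and 16.1% of the distal regions of the whole genome. The widest regions of ESCs alone were the 2368 bp intronic region chr11:98792660-98795027 of Rara, the 2331 bp region of Rxra above and the 1071 bp region chr11:98808686-98809756 of Rara. Another 4 (10.3%) had H3K27ac in an EPSC state and not in ESCs, the same share as the 10.3% of the whole genome: 2 by Stra6, 1 in Rarb and 1 in Rxra.

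Most distal H3K4me1 regions had no H3K27ac peak. Of the members' distal H3K4me1 regions, 14 of 45 (31.1%) also had H3K27ac in ESCs, 4 of 42 (9.52%) in D-EPSCs and 5 of 38 (13.2%) in L-EPSCs, beside 38.8%, 20.6% and 15.9% of such regions over the whole genome. Of the 11 DR5 matches, 1, 1 and 2 (9.09%, 9.09% and 18.2%) lay under H3K27ac and 3, 5 and 6 (27.3%, 45.5% and 54.5%) under H3K4me1. Over the windows of all genes these shares were 8.75%, 3.75% and 3.62% of 5199 matches for H3K27ac and 19.6%, 17.1% and 16.3% for H3K4me1.

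Of 35 other genes of the pathway, a list of receptors, co-regulators, carriers, enzymes and known targets, 16 had enough H3K27ac to be compared. In D-EPSCs 10 were lower by at least 2-fold and 1 higher, beside 61.6% and 4.66% of all genes, and in L-EPSCs 11 were lower and 3 higher, beside 79.6% and 1.79%, with median log2 ratios of -1.51 and -1.49 beside the -1.16 and -1.69 of all genes. These counts were not repeated with lists of equal covered bases. The largest differences in kb between L-EPSCs and ESCs were at co-regulators: Ncoa3, a coactivator, held 67.7, 35.4 and 26.7 kb, Ncoa1, also a coactivator, 51.5, 26.3 and 14.1 kb, and Ncor1, a corepressor, 53.2, 22.0 and 16.6 kb. Genes with more in L-EPSCs included Dhrs3, which reduces retinal back to retinol, with 2.74, 0.504 and 8.04 kb, and Stra8, a retinoic acid target of germ cells, with 1.17, 0.603 and 3.56 kb. Dhrs3 and Stra8 had an H3K27ac peak at a start in L-EPSCs only. Stra8 was 1 of 5 known targets with enough H3K27ac to be compared, and these were split. Of the 5, 2 were lower and 1 higher in D-EPSCs, and 2 were lower and 2 higher in L-EPSCs, beside the all-gene shares above. H3K4me1 was lower at 3 and higher at 2 of 32 genes in D-EPSCs, beside 4.52% and 8.53%, and lower at 1 and higher at 5 of 34 in L-EPSCs, beside 9.12% and 9.27%. H3K27ac was found at a start of 11, 8 and 10 of the 35 genes, beside 37.8%, 37.1% and 30.5% of all genes, and H3K4me1 at 27, 29 and 29, beside 61.1%, 69.0% and 70.0%.

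The lists were checked against the labelled cell type by its markers. All 6 pluripotency genes examined (Pou5f1, Sox2, Nanog, Zfp42, Esrrb and Tdgf1) had an H3K27ac peak at a start in every state, and 0 of 6 fibroblast genes, markers of feeder cells, had one in any.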

How the data were processed

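ChIP-seq of H3K4me1 and H3K27ac was performed by the authors in ESCs, D-EPSCs and L-EPSCs with 150 bp paired-end reads. Per the labels and the study's methods, reads were trimmed with Trim Galore 0.6.3, aligned to mm9 with Bowtie2 2.3.5, handled with SAMtools 1.10, and broad peaks were called with MACS 2.2.7 against input. Peak thresholds and the way the 2 samples of a group were combined are not given in the sources used here. The deposited files are 6 lists of peak positions without scores, so the depth behind a peak is unknown and its number of samples cannot be recovered.

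From these positions, bases under a peak were counted in the window of each of the 22350 protein-coding genes of chromosomes 1 to 19 and X (GENCODE M1). Chromosome names and lengths were compared with the NCBIM37 assembly, the same build as mm9, from which sequences were read. A start window was 1 kb on each side of a protein-coding transcript start, and an overlap of 1 bp counted as a peak there. States were compared in pairs where at least 1 of the pair had 1 kb covered, a 2-fold difference was called, and log2 ratios had 500 bp added to both values. With 1 list per state and mark, no test was run. The interval and repeat-search code was tested on simulated lists (Python 3.11.15, numpy 2.4.6). Members, gene lists and rules for named genes and regions were chosen with earlier results of these data known. Genes named are all members, the other pathway genes with the 3 largest H3K27ac differences in each direction (1 of which is not reported here), the widest distal regions, and DR5 matches at starts or under H3K27ac. Alternatives varied the flank, start window, minimum peak width, list size, fold and minimum cover.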

Additional observations from a re-analysis of the deposited data

Results flagged for a closer look

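No member had H3K27ac or H3K4me1 past 2-fold in opposite directions in the 2 EPSC states. Among the other pathway genes, Dhrs3 did for H3K27ac: its log2 ratio over ESCs was -1.69 in D-EPSCs and 1.40 in L-EPSCs. It stands out because the EPSC states moved to opposite sides of ESCs, and with 1 list per state that difference was not tested.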

How the results depend on the processing

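No paired analysis was possible because there is 1 list per state and mark and no test. Peak thresholds, depth and replicate spread are unknown, so no value below has an error. H3K27ac of Rarb was higher in both EPSC states under all 11 alternatives. Where the 1 kb minimum applied it could not be called lower, because ESCs had 0.505 kb, in 1 peak, against 2 peaks in each EPSC state. Members with lower H3K27ac in D-EPSCs than in ESCs (3 of 6) numbered 5 of 7 with 50 kb flanks, beside 62.9% of all genes. They numbered 1 of 5 with equal covered bases, beside 15.4%, and 0 of 6 at 3-fold, beside 40.8%. In L-EPSCs (4 of 7) they numbered 1 of 6 with equal covered bases, beside 17.3%, and 2 of 7 by number of peaks, beside 67.0%. Between EPSC states (3 of 7) they numbered 0 of 6 with equal covered bases, beside 20.7%. They numbered 1 of 7 by number of peaks, beside 33.1%, and 1 of 7 at 3-fold, beside 19.5%. For H3K4me1, members lower in D-EPSCs (0) numbered 1 with 50 kb flanks and at 1.5-fold, those lower in L-EPSCs (1) 0 with equal covered bases and at 3-fold and 2 by number of peaks, and those lower in L-EPSCs than in D-EPSCs (0) 1 by number of peaks. With the 5′ end alone as start, D-EPSCs had H3K27ac at 1 of 9 members, beside 35.3% of all genes, and ESCs had H3K4me1 at 5, beside 57.5%. With equal covered bases H3K27ac was at a start of 2 members in ESCs, beside 4.70%, and 2 in D-EPSCs, beside 18.6%. Distal H3K27ac in ESCs was 31.6 kb with equal covered bases. With equal covered bases the H3K27ac log2 ratio of Rxra turned to 3.44 in D-EPSCs and 2.71 in L-EPSCs and that of Crabp2 to 0.65 in L-EPSCs. By number of peaks the H3K4me1 ratio of Cyp26a1 turned to -1.0 in L-EPSCs. With 1 mismatch, 126 DR5 matches were found, of which 13, 7 and 6 lay under H3K27ac in ESCs, D-EPSCs and L-EPSCs and 22, 32 and 32 under H3K4me1. Within 1 kb of a peak were 2 and 3 exact matches for H3K27ac in ESCs and D-EPSCs and 6 for H3K4me1 in ESCs. The causes of these shifts were not tested.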

Other observations

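DR5 matches were counted in all distal H3K27ac regions of the genome by the states that carried them. Regions with H3K27ac in all 3 states held 6.07 matches per Mb, those of ESCs alone 5.34, those of ESCs and D-EPSCs 3.66 and those of ESCs and L-EPSCs 8.75. Regions of both EPSC states but not ESCs held 11.5 per Mb, from 15 matches, those of D-EPSCs alone 5.43, from 12, and those of L-EPSCs alone 13.0, from 13. Per Mb, the 3 classes with H3K27ac in L-EPSCs but not in all states had the highest values. They rested on 44 matches for ESCs and L-EPSCs, and on few, 15 and 13, for the classes without ESCs. By share of regions holding a match, regions of all 3 states were highest at 2.61%, and these 3 classes stood at 1.66%, 1.59% and 0.727%. No test of either order was run.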
